A study of Homo sapiens with 7 samples.

Results

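The solute carriers outside the mitochondrial SLC25A group were followed from transcription to polysomes in HCT116, an established human colorectal carcinoma cell line. Genes were chosen by symbol (SLC, a family number, the letter A and a member number, without SLC25A) and by level. They were selected on a mean of at least 1 RPKM (reads scaled to the kilobases of exon and to the mapped reads of the library) in each of 3 assays. Of 286 such symbols among the 20072 listed, 141 (49.3%) met the rule, and they belonged to 39 of the 47 families in the table. Since the rule used the levels themselves, the levels are given as a description, and the main counts of members are set beside the 10825 genes that meet the same threshold.

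Solute carriers are membrane proteins that move amino acids, sugars, carboxylates, ions, metals, nucleosides and vitamins across the plasma membrane and the membranes of organelles. Families are numbered by sequence relation, and members of a family often differ in substrate, direction and membrane. Several are well known in tumour cells, among them the glucose carrier SLC2A1, the glutamine carrier SLC1A5, the exchanger formed by SLC7A5 with its heavy chain SLC3A2, and the lactate carriers SLC16A1 and SLC16A3.

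All libraries came from untreated, wild-type HCT116 cells in log phase, kept without serum in McCoy's medium with EGF, insulin and transferrin. The transcription rate (TR) was read by GRO-seq, a nuclear run-on in which polymerases already on a gene lengthen their RNA with a labelled base (2 libraries). mRNA abundance (RA) was read by RNA-seq of mRNA (3 libraries), and translation activity (TA) by polysome profiling, the sequencing of mRNA that sediments with ribosomes (2 libraries). Cycloheximide, which halts ribosomes on mRNA, was given to the cells for the polysome assay alone, so the assay and its cell handling cannot be told apart. Each assay is thus a mixed population of 1 cell line, with no genotype or treatment compared.

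Library sizes worked out from the RPKM values were 3391897 and 5629982 reads for TR, 20299018 to 22532134 for RA, and 22421062 and 30805391 for TA. A member held at least 20 reads in a TR library and at least 44 in an RA or TA library, with a median of 196 reads in the smallest library. The epithelial genes EPCAM, CDH1, KRT8, KRT18 and KRT19 had a mean RA of 47.1 to 978 RPKM, while PTPRC, CD3E, COL1A2, ALB, APOA1 and PDGFRB were at or below 0.219 RPKM in mean RA. COL1A1, a fibroblast marker, stood at 11.5 RPKM. Library values below are given in the order of their replicate numbers. The paper calls the libraries of an assay biological replicates and describes log-phase cells split up among the assays. Neither labels nor methods say which libraries share a culture. The p-values therefore measure the spread between these libraries, part of which may be technical.

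Differences between assays were tested for each gene with limma on log2(RPKM + 0.1) over all 14305 genes with at least 1 RPKM in some assay, and a gene was called at a Benjamini-Hochberg adjusted p under 0.05. Every adjusted p below comes from that fit or from a refit of it with a library left out. A log2 difference is given with its standard error. Ratios of mean RPKM are also given on the log2 scale, as a stability index for RA over TR and a translation index for TA over RA. RPKM values are scaled to the total of each library, so a difference is relative to the other genes of that library. Centring each library on the median of the 10825 genes would add 0.28 to each RA against TR difference and 0.36 to each TA against RA difference.

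The translation index is read from mRNA on ribosomes, and the letters around the start codon are one feature of an mRNA that ribosomes read. The contexts below belong to the 3 lowest members in this index and to 3 of the highest, and the capitals mark the base 3 before the start codon, the ATG and the base after it. They come from the canonical transcripts of GENCODE 44 lifted to GRCh37, 5′ to 3′ on the strand of the gene, and each lies in the exon that begins the coding sequence. The genes are SLC4A3 at chr2:220492116-220506702 on the plus strand, SLC30A9 at chr4:41992519-42092478 on the plus strand, SLC36A4 at chr11:92877340-92931157 on the minus strand, SLC16A1 at chr1:113454469-113500215 on the minus strand, SLC2A1 at chr1:43391024-43424564 on the minus strand and SLC1A5 at chr19:47278140-47291851 on the minus strand.
SLC4A3: tacctgGccATGG
SLC30A9: cccaccAggATGT
SLC36A4: ccgcgaGagATGG
SLC16A1: acacttAaaATGC
SLC2A1: agcgctGccATGG
SLC1A5: cttcccAtcATGG

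All 6 hold a purine (A or G) 3 bases before the ATG, as most mammalian mRNAs do, and G follows the ATG in 4 of them, which include both low and high genes. The 71 members with a purine at the first place and a G at the second had a median translation index of -0.15, and so had the 61 members with 1 of both. The 7 members with neither had a median of -0.71, with a range from -1.28 to 0.53. These groups are a description, since members of a family also share sequence.

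RA was called higher than TR for 18 of the 141 members (12.8%) and lower for 55 (39.0%), and 68 were not called. Over all genes fitted, 19.2% were called higher and 48.0% lower. Among genes of at least 1 RPKM in each assay, which were selected on the same threshold, the shares were 24.7% higher and 34.2% lower. With each library centred on its median, 30 members were called higher and 44 lower, beside 32.9% and 25.8% of the 10825 genes. The lower RA calls of SLC4A3, SLC10A4, SLC22A5, SLC22A18, SLC35A4 and SLC37A4 were among those lost with centring. The members' median stability index was -0.32, beside -0.14 for those genes, and lay between -0.41 and -0.29 over the 6 pairs of a TR and an RA library. Calls rested in part on single libraries. Of the 73 calls, 44 held with any 1 of the 7 libraries left out. Without TR library 2 or without RA library 3, 10 members were called higher rather than 18, beside 16.6% and 20.6% of the 10825 genes.

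TA was called higher than RA for 9 members (6.38%) and lower for 34 (24.1%), beside 6.66% and 29.2% of all genes fitted and 8.67% and 28.3% of genes of at least 1 RPKM in each assay. The median translation index of the members was -0.16, and that of the 10825 genes was -0.30. After centring, 19 members were called higher and 10 lower, and the median turned to 0.20, beside 19.4% higher and 13.6% lower among the 10825 genes. This split therefore rests on the scaling. Named members whose lower TA call was lost with centring were SLC2A13, SLC5A3, SLC6A8, SLC7A6, SLC9A5, SLC26A2, SLC26A10, SLC27A5, SLC29A4, SLC35A4 and SLC44A1. Leaving out TA library 1 left 3 members higher and 11 lower, beside 1.79% and 12.1% of the 10825 genes, and leaving out TA library 2 left 4 higher, beside 4.16%. Each TR library or RA library 3 left out gave 20 or 21 lower, beside 18.1% to 20.3% of those genes. Of the 43 calls, 9 held with any 1 library left out. Between the outermost assays, TA was called higher than TR for 23 members and lower for 68 (16.3% and 48.2%), beside 17.0% and 57.5% of all genes fitted and 21.9% and 45.7% of genes of at least 1 RPKM in each assay. Fewer members were called higher without either TR library. Shares over all genes for those refits are not given here, so the drop is not read as particular to the members. Below, a gene described as not called, with no pair of assays named, was called at neither of the single steps.

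**Figure D1:**
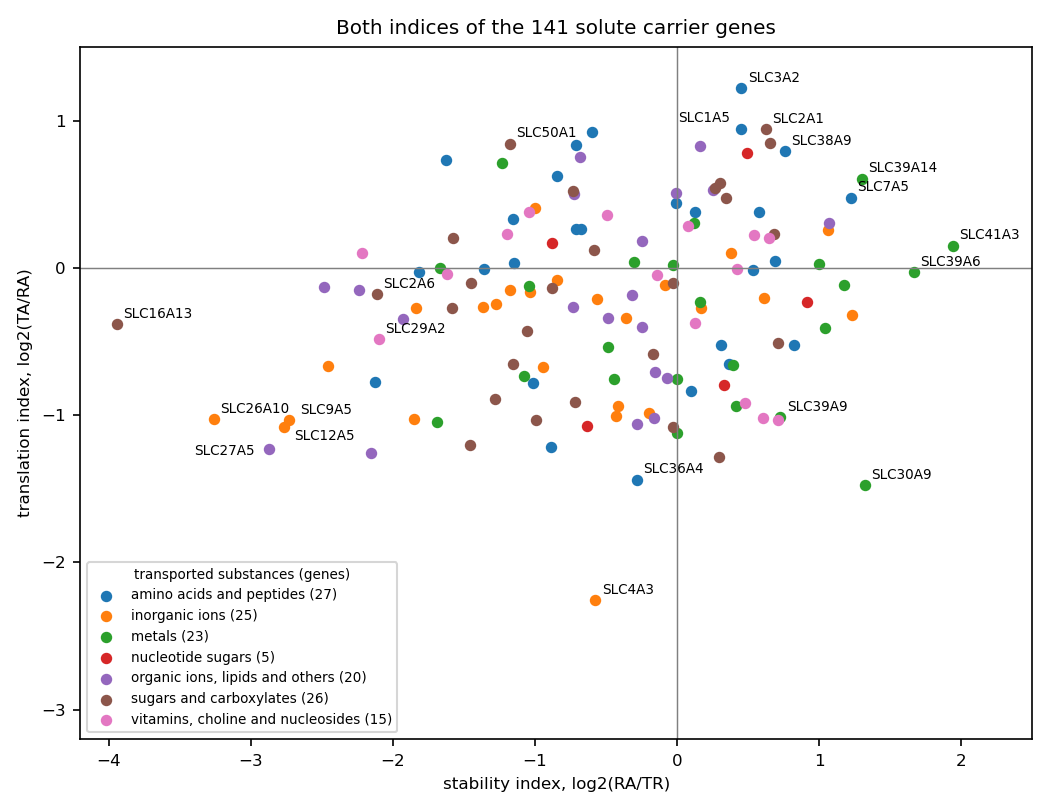
Stability index (x axis, log2 RA/TR) against translation index (y axis, log2 TA/RA) of the 141 genes, 1 point per gene from mean RPKM, coloured by transported substance. Points spread from -3.94 to 1.95 on the x axis and from -2.25 to 1.22 on the y axis, and SLC30A9 lies high on the first and low on the second.

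Some members were called at both steps. RA and TA were each called lower than in the step before for 17 members, and higher for 3: SLC2A1, SLC16A1 and SLC38A9. For 4 members RA was lower than TR and TA higher than RA (SLC38A3, SLC39A4, SLC22A18 and SLC50A1), and for 2 the order was the reverse, SLC30A9 and SLC39A9. Neither step was called for 51 members. Shares of such joint calls over the 10825 genes are not given here, so these counts describe the members alone. At the single steps, 34.2% of those genes were called lower in RA and 28.3% lower in TA. The shares called higher were 24.7% and 8.67%. Across the 141 genes Spearman's rho between the 2 indices was 0.19, beside 0.22 across the 10825 genes. The indices share RA, and genes are not independent replicates.

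Calls were mixed within many families. Of the 22 families with at least 3 members, which hold 116 of the 141, 12 had members called in both directions between RA and TR. None had all of its members called lower. Among the 10825 genes, 24.7% were called higher and 34.2% lower. The mixture was not compared with groups of other genes of the same sizes, so it is not read as a trait of families. Median stability indices were above 0 in 6 families and median translation indices in 3 (SLC1, SLC38 and SLC5). The zinc carrier family SLC39 had the most members, 11 of 14 symbols, with RA called higher for 4 and lower for 3. SLC12 carriers of chloride with sodium or potassium had 4 of 7 lower in RA and none higher. The sulphate and anion exchangers of SLC26 had 3 of 4 lower in RA and 3 of 4 lower in TA. The shares called lower among the 10825 genes were 34.2% and 28.3%. The lower TA calls of SLC26A2, SLC26A6 and SLC26A10 were each lost with some library left out. SLC26A10, counted at both steps, is annotated as a pseudogene, and 86.2% of its exon bases overlap other genes.

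**Figure D2:**
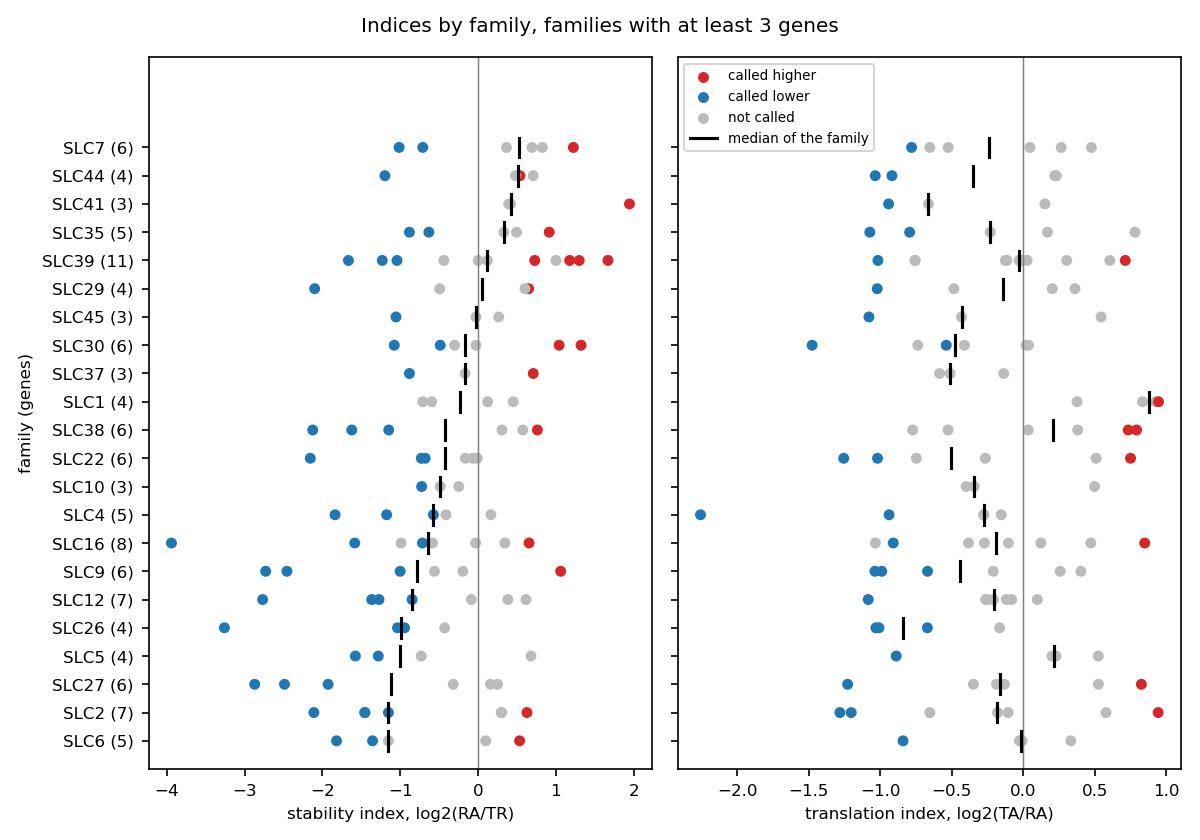
Stability index (left) and translation index (right) of each gene in the 22 families with at least 3 genes, ordered by the family's median stability index, 1 point per gene. Red points were called higher, blue points lower and grey points not called (limma, adjusted p under 0.05), and black bars are family medians. SLC7 has the highest median stability index at 0.53 and SLC6 the lowest at -1.15, and 12 families hold both red and blue points on the left.

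Amino acid and peptide carriers were the class in which the translation index lay above 0 most often. It did so for 16 of 27 members (59.3%), beside 35.03% of the 10825 genes, with a class median of 0.26. RA was called higher than TR for 3 (11.1%) and lower for 8 (29.6%), beside 24.7% and 34.2% of the 10825 genes, and TA higher than RA for 3 (11.1%) and lower for 4 (14.8%), beside 8.67% and 28.3%. This class was described with its values known and its difference from other genes was not tested.

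SLC38A2, a sodium-coupled carrier of small neutral amino acids, had the highest level of all members in each assay. It stood at 229 and 267 RPKM in TR, 219, 454 and 433 in RA, and 549 and 412 in TA. Neither step was called. RA library 1 lay below both TR libraries, and RA libraries 2 and 3 lay above TA library 2. SLC1A5, which exchanges glutamine and other neutral amino acids, had 68.4 and 69.5 RPKM in TR, 84.6, 94.3 and 104 in RA, and 186 and 177 in TA. The groups did not overlap at either step. TA was 1.93 times RA (log2 difference 0.95 ± 0.17, adjusted p = 0.00668), while the RA against TR difference of 0.45 ± 0.17 was not called (adjusted p = 0.051). Its TA call held with any 1 library left out, with a highest adjusted p of 0.0473.

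SLC3A2 is the heavy chain that brings SLC7A5 and other light chains to the membrane. Its TR was 105 and 118 RPKM, its RA 66.7, 250.5 and 141, and its TA 447 and 265. Both TA libraries lay above all RA libraries, and its translation index of 1.22 was the highest of all members, but the wide RA spread left it uncalled (1.37 ± 0.51, adjusted p = 0.0669). SLC7A5, a light chain that takes up large neutral amino acids such as leucine, had 77.4 and 77.1 RPKM in TR, 92.2, 245 and 205 in RA, and 296 and 206 in TA. RA lay above TR in every library and was called (1.11 ± 0.40, adjusted p = 0.0392). That call was lost without either TR library or without RA library 2 or 3, with an adjusted p up to 0.192.

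SLC38A9, a lysosomal carrier that signals arginine to mTORC1, was higher at each step. TR was 3.45 and 4.94 RPKM, RA 6.26, 8.12 and 6.97, and TA 14.3 and 10.4. The groups did not overlap, with differences of 0.76 ± 0.25 for RA against TR (adjusted p = 0.0251) and 0.77 ± 0.25 for TA against RA (adjusted p = 0.0428). Both calls were fragile. The first was lost without TR library 1 or RA library 2 or 3 (up to 0.182), and the second without any library but RA library 2 (up to 0.254 without TA library 1). SLC6A6, a taurine carrier, had an RA above TR (0.52 ± 0.17, adjusted p = 0.0224, but 0.0872 without RA library 3 and lost without either TR library) and a TA level with RA (translation index -0.02).

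SLC36A4, an amino acid carrier of intracellular and plasma membranes, had the lowest translation index of the class. TR was 10.6 and 10.2 RPKM and RA 8.63, 7.95 and 9.10, against 2.61 and 3.71 in TA. RA was thus 2.71 times TA (log2 difference -1.43 ± 0.21, adjusted p = 0.00389, at most 0.0289 with a library left out). In contrast, SLC6A20, a proline carrier, and SLC38A7, a lysosomal glutamine carrier, had low RA for their TR. SLC6A20 had 10.6 and 11.4 RPKM in TR, and 2.81, 3.26 and 3.29 in RA (-1.79 ± 0.20, adjusted p = 9.33e-05). SLC38A7 had 10.9 and 11.95 RPKM in TR and 3.38, 2.07 and 2.39 in RA (-2.11 ± 0.26, adjusted p = 0.000152). TA was level with RA for SLC6A20, and for SLC38A7 it lay below all RA libraries at 1.505 and 1.55 RPKM without being called.

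Further calls in the class concern carriers with a limit of their own. SLC38A3 combined an RA below TR with a TA above RA (0.69 ± 0.22, adjusted p = 0.0429). It lies just inside the threshold, and its TA call was lost without any 1 of the TA or RA libraries (up to 0.159). The creatine carrier SLC6A8, which has a near-identical copy (SLC6A10P) that can share its reads, had a TA of 14.98 and 20.04 RPKM below an RA of 37.5, 25.8 and 30.7. That call (-0.83 ± 0.24, adjusted p = 0.0291) was lost without TA library 1, RA library 1 or 3 or either TR library (up to 0.182). SLC7A6 was lower at both steps, but 53.9% of its exon bases overlap other genes, SLC7A6OS among them, and the strand setting of the counting is not given in the sources used here. Its RA call (adjusted p = 0.0049) was lost without TR library 2 (0.0561), and its TA call (adjusted p = 0.0422) without any library but RA library 1 (up to 0.176).

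**Figure D3:**
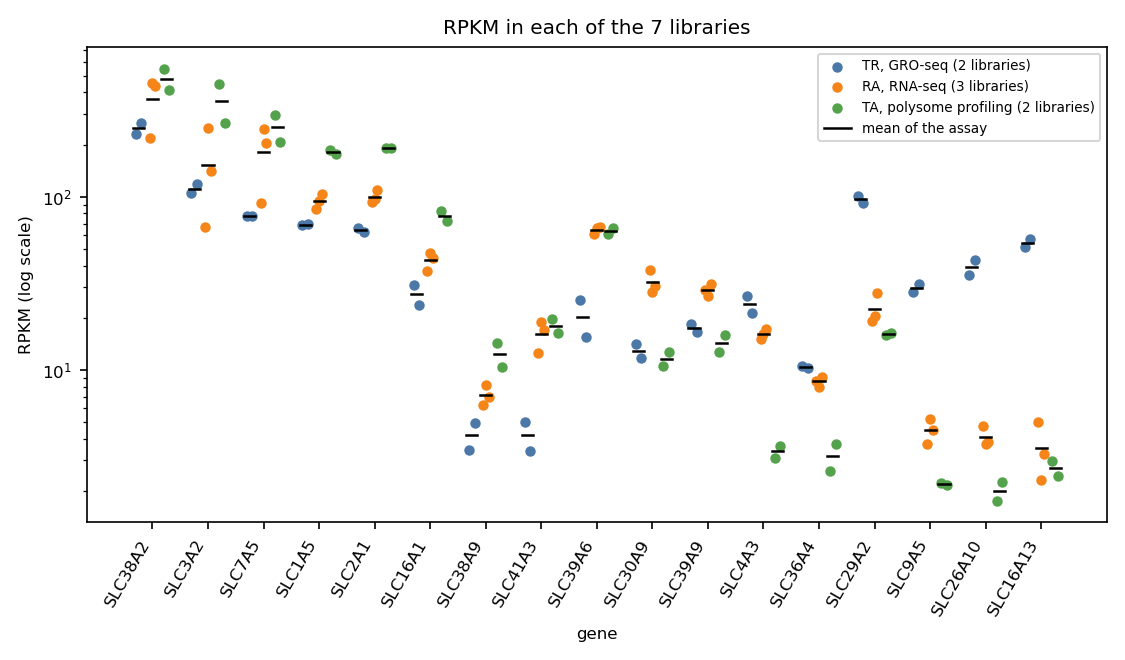
RPKM (y axis, log scale) of 17 genes in each library, with TR in blue (2 libraries), RA in orange (3) and TA in green (2), and black bars at the mean of the assay. SLC1A5, SLC2A1 and SLC16A1 step upward from TR to TA, SLC30A9 and SLC39A9 are highest in RA, and SLC16A13 falls from a mean of 54.2 in TR to 3.53 in RA.

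Amino acid carriers were frequent among the members with the widest spread between the RNA-seq libraries. Ranked by the ratio of the highest to the lowest RA library, the first 15 members held 7 of this class, beside 27 of all 141 members. Of these 15, 12 were lowest in RA library 1 and 9 were highest in library 2. The counts depend on where the ranking is cut. The members next in rank, SLC39A10, SLC39A3, SLC2A8, SLC16A3 and SLC16A13, were of other classes and lowest in library 2 or 3. Over all members, 42.6% were lowest in library 1, and over all of the 10825 genes 38.4%. SLC43A1, a leucine carrier, had 0.82, 3.68 and 2.03 RPKM, a 4.48-fold range. SLC7A11, the cystine and glutamate exchanger, had 3.31, 14.2 and 8.53 RPKM, and the glycine carrier SLC6A9 2.27, 9.33 and 6.92. The glutamate carrier SLC1A3 had 1.77, 5.65 and 5.51 RPKM, and SLC1A4, which carries alanine, serine and cysteine, 2.42, 7.12 and 3.80. The median SD of log2 RA between the libraries was 0.28 for members and 0.24 for the 10825 genes. For these carriers the RA mean, and with it both indices, depends on which RNA-seq library is read, and no called difference in either step was found for SLC3A2, SLC43A1, SLC7A11, SLC6A9, SLC1A3 or SLC1A4.

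**Figure D4:**
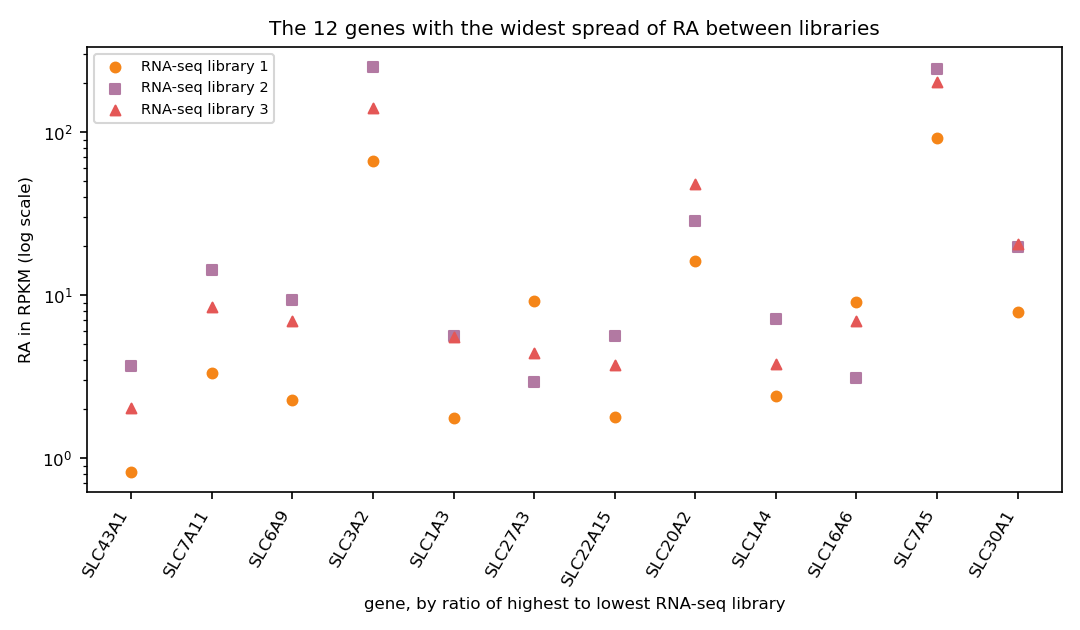
RA in RPKM (y axis, log scale) in each of the 3 RNA-seq libraries for the 12 genes with the largest ratio of highest to lowest library, ordered by that ratio from left (SLC43A1, 4.48) to right (SLC30A1, 2.60). Library 1 (circles) is the lowest for 10 of the 12 genes.

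Many amino acid carriers are known targets of ATF4, the transcription factor of the amino acid response, which binds composite sites with C/EBP proteins. The core letters of that site, TGATGNAA, or TTNCATCA on the other strand, were therefore searched in 300 bases of promoter (250 before to 50 after the first start that RefSeq lists for the gene, GRCh38.p14), for which 113 members had an entry. They were found for 6 of 113 members (5.31%), beside 3.67% of 27305 promoters. The 4 amino acid carriers among them are shown 5′ to 3′ along the gene, with the matched letters in capitals and with the GRCh37 position to which each stretch matched uniquely within 20 kb of the gene. SLC1A3 lies at chr5:36596460-36596487 and SLC3A2 at chr11:62649198-62649220, both on the plus strand. SLC38A1 lies at chr12:46660286-46660313 and SLC7A1 at chr13:30169801-30169828, both on the minus strand.
SLC1A3: aggaaatgacTGATGCAAagcagggtta
SLC3A2: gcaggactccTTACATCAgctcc
SLC38A1: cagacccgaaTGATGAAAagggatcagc
SLC7A1: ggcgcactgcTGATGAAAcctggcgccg

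The match begins 220 bases before the annotated start in SLC1A3 and 4 before it in SLC38A1, and 7 bases after it in SLC7A1 and 37 after it in SLC3A2. All 4 genes had their lowest RA in library 1, as had 15 of the 27 amino acid carriers and 42.6% of all members. Whether the letters have any part in the spread of RA was not tested. SLC38A1, a neutral amino acid carrier, had 34.9, 50.7 and 43.6 RPKM there, and SLC7A1, the main carrier of cationic amino acids, 24.8, 41.2 and 45.7. The other members with the letters were SLC39A11 (22.8, 22.9 and 22.5 RPKM in RA) and SLC27A5 (5.395, 3.96 and 3.27 RPKM). SLC43A1 and SLC1A4 hold no match in this window, and none was found for SLC7A11, SLC6A9 or SLC7A5.

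Carriers of sugars and carboxylates held the member with the lowest stability index and 2 that were higher at each step. Of 26 members, RA was called higher than TR for 3 (11.5%) and lower for 12 (46.2%), beside 24.7% and 34.2% of the 10825 genes. TA was called higher than RA for 3 (11.5%) and lower for 5 (19.2%), beside 8.67% and 28.3%, with class medians of -0.72 and -0.16 in the 2 indices. SLC2A1, the widely expressed glucose carrier GLUT1, had 66.1 and 62.9 RPKM in TR, 93.3, 96.8 and 109 in RA, and 192 and 192 in TA. No library of a step overlapped with the next. RA rose above TR by a factor of 1.55 (0.63 ± 0.17, adjusted p = 0.0117, but 0.0522 without RA library 3), and TA above RA by 1.92 (0.95 ± 0.17, adjusted p = 0.00622, at most 0.0423 with a library left out).

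SLC16A1, which moves lactate and pyruvate with protons, had 30.8 and 23.6 RPKM in TR, 37.1, 47.4 and 44.2 in RA, and 82.2 and 72.4 in TA. Its RA lay above TR (0.66 ± 0.19, adjusted p = 0.0158) and its TA above RA (0.85 ± 0.19, adjusted p = 0.0129). The first call was lost without TR library 2 or RA library 3 (0.111 at most), the second without TA library 1 (0.0858). SLC16A3, the lactate exporter of glycolytic cells, had 81.7 and 54.1 RPKM in TR, 125, 76.2 and 57.3 in RA, and 134 and 105 in TA, with overlapping libraries and no call. The chaperone that carries both to the membrane, BSG, had 105 and 54.8 RPKM in TR, 417, 351 and 386 in RA and 846 and 945 in TA. BSG was called higher at both steps (2.34 ± 0.31, adjusted p = 0.000262, and 1.22 ± 0.31, adjusted p = 0.0199).

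SLC50A1, the single human member of the SWEET sugar carriers, combined an RA below TR with a TA above RA. TR was 81.5 and 115 RPKM, RA 30.9, 55.3 and 44.02, and TA 90.4 and 65.5. The RA call (-1.20 ± 0.29, adjusted p = 0.00658) was lost without TR library 2 (0.0956), and the TA call (0.86 ± 0.29, adjusted p = 0.0493) without any library but RA library 2 (up to 0.263). SLC16A13, a monocarboxylate carrier of the liver, had the lowest stability index of all members. Its TR of 51.4 and 56.9 RPKM was 15.4 times its RA of 5.02, 2.31 and 3.26 (-3.97 ± 0.31, adjusted p = 1.29e-05). TA lay within the range of RA at 2.99 and 2.42 RPKM. SLC2A6, a lysosomal hexose carrier, was also much lower in RA (26.6 and 26.6 RPKM in TR, 8.26, 4.99 and 5.27 in RA, -2.13 ± 0.24, adjusted p = 0.000112).

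SLC5A3 and SLC2A13, carriers of myo-inositol among the members, had a TA below RA. SLC5A3, which takes up myo-inositol with sodium, shares 2.29% of its exon bases with coding genes, MRPS6 on the same strand among them. Its overlap with introns of other genes was not measured, so its TR is uncertain. SLC5A3 went from 14.7 and 13.1 RPKM in TR to 5.76, 4.98 and 6.45 in RA and 3.44 and 2.76 in TA. It was called lower at both steps (-1.27 ± 0.21, adjusted p = 0.000929, and -0.87 ± 0.21, adjusted p = 0.0173, by limma). The second call was lost without TA library 2 or RA library 3 (up to 0.0928). SLC2A13, the proton-coupled carrier of the same compound, had 3.36, 2.10 and 3.60 RPKM in RA and 1.03 and 1.46 in TA (-1.20 ± 0.30, adjusted p = 0.0186, lost without TA library 1, RA library 3 or either TR library, up to 0.124). SLC45A3 had a TA of 2.85 and 2.98 RPKM, with RA at 6.73, 5.91 and 5.82 (-1.05 ± 0.19, adjusted p = 0.00668), and its RA was level with TR.

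Other members of these families took intermediate places. SLC37A4, which moves glucose 6-phosphate into the endoplasmic reticulum, had a lower RA than TR (-0.91 ± 0.27, adjusted p = 0.0161, 0.126 without TR library 1 and also lost without TR library 2), and SLC37A3 of the same family a higher one (0.69 ± 0.21, adjusted p = 0.018, up to 0.0945 and lost without either TR library or RA library 2 or 3). SLC45A4 was lower in RA (-1.05 ± 0.26, adjusted p = 0.00726, 0.0835 without TR library 1). The glucose carrier SLC2A3, at 1.79, 2.21 and 3.30 RPKM in mean TR, RA and TA, stood far below SLC2A1 and shares much sequence with SLC2A14. SLC5A6, which takes up biotin and pantothenate, had 14.6 and 11.6 RPKM in TR and 14.8, 27.9 and 20.1 in RA, and this step was not called (0.64 ± 0.29, adjusted p = 0.0822), while TA was called higher than TR (adjusted p = 0.0319 by limma).

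Carriers of inorganic ions were often lower in RA than in TR. RA was called lower than TR for 14 of 25 members (56%) and higher for 1, and TA lower than RA for 10 (40%) and higher for none, beside the 34.2% and 28.3% called lower among genes of at least 1 RPKM in each assay. The class medians were -0.85 for the stability index and -0.28 for the translation index, the second close to that of the 10825 genes. All lower TA calls of the class but that of SLC4A3 were lost with some library left out. SLC4A3, a chloride and bicarbonate exchanger best known from heart and brain, had the lowest translation index of all members. TR was 26.6 and 21.4 RPKM, RA 15.1, 16.1 and 17.1, and TA 3.11 and 3.65, so RA was 4.77 times TA (-2.22 ± 0.18, adjusted p = 0.00214, at most 0.0189 with a library left out). Its RA was also below TR (-0.56 ± 0.18, adjusted p = 0.0258), a call lost without TR library 1 or RA library 2 or 3 (up to 0.139).

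The most extreme stability indices of the class belonged to carriers that textbooks place in other tissues. SLC12A5, the neuronal potassium and chloride exporter KCC2, had 16.8 and 17.9 RPKM in TR, 2.87, 2.33 and 2.44 in RA, and 1.31 and 1.10 in TA. SLC9A5, a sodium and proton exchanger of brain, had 28.1 and 31.3 RPKM in TR, 3.72, 5.23 and 4.49 in RA, and 2.21 and 2.16 in TA. Neither gene had overlapping libraries at a step. RA was lower than TR for both (-2.73 ± 0.21, adjusted p = 1.28e-05, and -2.71 ± 0.21, adjusted p = 1.21e-05). TA was lower than RA for both (-1.02 ± 0.21, adjusted p = 0.0102, and -0.99 ± 0.21, adjusted p = 0.0108), calls that missed the threshold without TA library 2 (0.0545) and TA library 1 (0.0553) respectively. SLC26A10 stood at 35.5 and 42.9 RPKM in TR and 4.72, 3.74 and 3.82 in RA (-3.23 ± 0.22, adjusted p = 5.54e-06). It is annotated as a pseudogene in GENCODE 44 and 86.2% of its exon bases overlap other genes, B4GALNT1 among them, so its reads cannot be assigned with certainty.

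The phosphate importer SLC20A1, with 132 and 142 RPKM in TR, 97.0, 88.0 and 134 in RA and 68.2 and 99.9 in TA, was the most abundant of the class. It was called at neither single step, and TA was called lower than TR (-0.73, adjusted p = 0.0416 by limma). SLC20A2, its relative, had 12.7 and 13.7 RPKM in TR and 16.2, 28.6 and 48.2 in RA, with a stability index of 1.23 that was not called (adjusted p = 0.0542). SLC12A2, the sodium, potassium and chloride importer NKCC1, and SLC12A7 were not called at either step.

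Bicarbonate and sulphate carriers add to the lower calls. SLC4A11 was lower in RA (19.2 and 18.7 RPKM in TR, 10.1, 6.79 and 8.28 in RA, -1.18 ± 0.24, adjusted p = 0.00278), and so was SLC26A11, a sulphate carrier of internal membranes (-1.03 ± 0.23, adjusted p = 0.00392). SLC26A2, the sulphate carrier of cartilage, was lower in TA (6.77, 3.35 and 4.72 RPKM in RA, 2.45 and 2.47 in TA, -0.92 ± 0.30, adjusted p = 0.043), a call lost without any library but RA library 2 (up to 0.153). SLC4A5 was lower in RA (-1.84 ± 0.23, adjusted p = 0.000197), but 79.7% of its exon bases overlap other genes, MTHFD2 among them. SLC4A7 ranged from 10.7 to 27.1 RPKM in RA and was not called.

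Metal carriers held more of the members with a higher RA than any other class. RA was called higher than TR for 7 of 23 (30.4%) and lower for 6 (26.1%), beside 24.7% and 34.2% of the 10825 genes, with a class median stability index of 0.12. TA was called higher than RA for 1 (4.35%) and lower for 6 (26.1%), beside 8.67% and 28.3%. SLC41A3, a magnesium carrier of mitochondria, had the highest stability index of all members. TR was 5.004 and 3.38 RPKM, RA 12.5, 19.0 and 17.0, and TA 19.6 and 16.4, so RA was 3.85 times TR (1.93 ± 0.25, adjusted p = 0.000239, at most 0.00838 with a library left out). SLC39A6, a zinc importer of the plasma membrane, followed with 25.2 and 15.4 RPKM in TR, 60.6, 66.0 and 67.2 in RA and 61.0 and 65.7 in TA (1.71 ± 0.22, adjusted p = 0.000215). TA of both lay within or close to the range of RA.

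SLC30A9 and SLC39A9 were the 2 members with a higher RA than TR and a lower TA than RA. SLC30A9, a zinc exporter of mitochondria, had 14.1 and 11.7 RPKM in TR, 37.9, 28.1 and 30.7 in RA, and 10.5 and 12.7 in TA. Its RA was 2.504 times TR (1.31 ± 0.20, adjusted p = 0.000535) and 2.78 times TA (-1.46 ± 0.20, adjusted p = 0.00347), and the TR and TA libraries overlapped. SLC39A9, a zinc importer of the secretory pathway, had 18.3 and 16.5 RPKM in TR, 28.7, 26.8 and 31.2 in RA, and 12.7 and 15.9 in TA (0.72 ± 0.17, adjusted p = 0.00624, and -1.02 ± 0.17, adjusted p = 0.00534). All 4 calls held with any 1 library left out, with adjusted p of at most 0.0132, 0.0271, 0.0463 and 0.0424 in the order given.

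Other zinc carriers went both ways. SLC39A14, which imports zinc and manganese, had 26.7 and 24.3 RPKM in TR, 40.5, 82.1 and 65.9 in RA and 119 and 72.3 in TA, and RA was called higher than TR (1.24 ± 0.33, adjusted p = 0.0099, 0.104 without TR library 2 and also lost without TR library 1). SLC39A4, the intestinal zinc importer, had 48.8 and 44.1 RPKM in TR, 21.8, 16.4 and 21.2 in RA, and 26.4 and 38.6 in TA. Its RA was lower than TR (-1.24 ± 0.22, adjusted p = 0.00124) and its TA higher than RA (0.70 ± 0.22, adjusted p = 0.0391), the latter lost without TA library 2, RA library 2 or 3 or either TR library (up to 0.23). SLC39A13, a zinc carrier of the Golgi, fell to 12.8, 16.01 and 17.3 RPKM in RA from 47.6 and 49.9 in TR (-1.67 ± 0.18, adjusted p = 8.13e-05) and stayed level in TA. SLC39A1 also had a lower RA (-1.04 ± 0.15, adjusted p = 0.000445), but 95.9% of its exon bases are shared with an annotated readthrough gene. SLC39A7 and SLC39A10 were not called.

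Of the copper, magnesium and remaining zinc carriers, SLC31A1 and SLC41A1 were lower in TA than RA. SLC31A1, the plasma membrane copper importer CTR1, had 12.8 and 11.8 RPKM in TR and 14.7, 9.56 and 12.6 in RA, so that RA was level with TR, and 4.88 and 6.44 RPKM in TA. TA was called lower (-1.10 ± 0.24, adjusted p = 0.011), except without TA library 1 (0.0795). SLC41A1, a plasma membrane magnesium carrier, had 20.8, 17.6 and 20.5 RPKM in RA and 9.42 and 11.1 in TA (-0.93 ± 0.17, adjusted p = 0.00647). SLC30A3, a zinc exporter of synaptic vesicles, had a lower RA than TR (-1.11 ± 0.29, adjusted p = 0.00986, 0.0914 without TR library 1 and also lost without TR library 2). The iron importer SLC11A2 (mean TR 8.96, RA 10.04 and TA 8.57 RPKM) and the zinc exporter SLC30A1 were not called, and the iron exporter SLC40A1 did not meet the threshold.

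The SLC35A family, nucleotide sugar carriers of the Golgi, was complete, with SLC35A1 to SLC35A5 all members. RA was called higher than TR for SLC35A5 (5.52 and 6.27 RPKM in TR, 8.65, 13.3 and 11.4 in RA, 0.88 ± 0.23, adjusted p = 0.00873, 0.0737 without TR library 1) and lower for SLC35A2, the UDP-galactose carrier (29.5 and 27.8 RPKM in TR, 15.8, 15.6 and 15.3 in RA, -0.88 ± 0.16, adjusted p = 0.00174). SLC35A4, whose leader holds 11 upstream ATG triplets, was lower at both steps. It had 28.1 and 27.2 RPKM in TR, 23.6, 15.4 and 14.6 in RA, and 7.44 and 9.56 in TA (-0.66 ± 0.24, adjusted p = 0.0399, and -1.04 ± 0.24, adjusted p = 0.0147). The first call was lost without either TR library or RA library 2 or 3 (up to 0.173), the second without TA library 1 (0.101). SLC35A1, the CMP-sialic acid carrier, had the highest TA, 56.0 and 36.4 RPKM, over an RA of 18.5, 35.5 and 26.7, and was called at neither single step, while TA was called higher than TR (adjusted p = 0.00824 by limma). Coding genes overlap 59.7% of its exon bases.

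Fatty acid, organic ion and other carriers were lower in RA for 8 of 20 members (40%) and higher for 1 (5%), beside 34.2% and 24.7% of the 10825 genes. TA was higher than RA for 2 (10%) and lower for 4 (20%), beside 8.67% and 28.3%. All 6 members of SLC27, the fatty acid transport proteins and acyl-CoA synthetases, met the threshold. SLC27A5, the bile acid CoA ligase of the liver, went from 27.9 and 33.6 RPKM in TR to 5.395, 3.96 and 3.27 in RA and 1.33 and 2.26 in TA (-2.87 ± 0.30, adjusted p = 6.72e-05, and -1.20 ± 0.30, adjusted p = 0.0188). Its TA call was lost without TA library 1 or either TR library (up to 0.126). SLC27A2, a very long chain acyl-CoA synthetase, had the opposite order in TA, with 8.59, 10.2 and 10.5 RPKM in RA and 18.7 and 15.9 in TA (0.82 ± 0.18, adjusted p = 0.0119, 0.0859 without TA library 1), and 23.4% of its exon bases overlap ATP8B4. SLC27A4, the ubiquitous member, was not called at either step.

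Within SLC22, the organic ion family, SLC22A23 was lower at both steps (23.97 and 23.4 RPKM in TR, 5.46, 6.16 and 4.32 in RA, 2.64 and 1.82 in TA, -2.15 ± 0.24, adjusted p = 0.000102, and -1.23 ± 0.24, adjusted p = 0.00838), although 20.9% of its exon bases overlap PSMG4. SLC22A18 had a lower RA (20.7 and 15.7 RPKM in TR, 11.3, 10.4 and 12.4 in RA, -0.67 ± 0.18, adjusted p = 0.0126, 0.0764 without TR library 1) and a higher TA (18.5 and 19.7 RPKM, 0.75 ± 0.18, adjusted p = 0.0177, lost without either TA library, up to 0.0813). The carnitine carrier SLC22A5 was lower in RA (-0.72 ± 0.24, adjusted p = 0.0286), a call lost without either TR library or RA library 1 or 3 (up to 0.176). SLC10A4 was lower in RA too (-0.71 ± 0.21, adjusted p = 0.018, 0.127 without TR library 2). The acetyl-CoA carrier SLC33A1 was not called.

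Carriers of vitamins, choline and nucleosides had class medians of 0.08 and -0.01 in the stability and translation index, beside -0.14 and -0.30 for the 10825 genes. The 2 best known equilibrative nucleoside carriers moved apart between TR and RA. SLC29A1, of the plasma membrane, had 29.1 and 20.1 RPKM in TR and 44.3, 33.5 and 37.9 in RA (0.66 ± 0.22, adjusted p = 0.0265), a call lost without TR library 2 or RA library 1 or 3 (up to 0.197). SLC29A2 had 101 and 92.0 RPKM in TR and 19.2, 20.5 and 27.7 in RA (-2.11 ± 0.19, adjusted p = 3.15e-05, at most 0.00229 with a library left out), followed by 15.8 and 16.3 in TA. SLC29A4, a monoamine carrier, was lower in TA (12.7, 10.4 and 12.6 RPKM in RA, 4.39 and 7.34 in TA, -1.05 ± 0.26, adjusted p = 0.0173, lost without TA library 1 or RA library 3, up to 0.113).

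Among the choline carriers, SLC44A2 was higher in RA than TR (0.54 ± 0.19, adjusted p = 0.0337, lost without TR library 2 or RA library 1 or 3, up to 0.188) and SLC44A3 lower (-1.20 ± 0.20, adjusted p = 0.000892). SLC44A1 was lower in TA (15.1, 9.09 and 12.6 RPKM in RA, 4.99 and 6.99 in TA, -1.01 ± 0.28, adjusted p = 0.025), a call lost without TA library 1, RA library 3 or either TR library (up to 0.159). The proton-coupled folate carrier SLC46A1 was lower in RA (13.04 and 11.6 RPKM in TR, 2.27, 2.64 and 3.03 in RA, -2.19 ± 0.22, adjusted p = 4.84e-05), with 62.4% of its exon bases overlapped by other genes. The reduced folate carrier SLC19A1 and the riboflavin carrier SLC52A2 were not called, and other genes overlap 23.2% and 25.2% of their exon bases.

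Other members that mark the edge of their family in an index were called at neither step. Closest to a call was SLC37A1, with 7.21, 7.75 and 7.36 RPKM in RA and 4.65 and 5.28 in TA (-0.58 ± 0.20, adjusted p = 0.052 by limma). SLC45A1 had its TA of 36.5 and 39.99 RPKM above all RA libraries (20.3, 26.1 and 32.3), as had SLC22A17 (17.96 and 15.5 over 10.2, 11.8 and 13.2 RPKM), at adjusted p = 0.070 and 0.0621 by limma. The glutamate carrier SLC1A1, SLC27A6, the nucleoside carrier SLC29A3 and SLC5A10 had translation indices between 0.36 and 0.53, and SLC12A8 one of 0.10. Coding genes on the opposite strand, FAM83G and GRAP among them, cover 50.9% of the exonic bases of SLC5A10, so its values are uncertain. SLC10A3, SLC41A2 and SLC16A14 had indices of -0.40, -0.66 and -1.03, and SLC16A14 had wide spreads, with 3.62 and 7.43 RPKM in TR and 1.71 to 3.43 in RA.

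The threshold of 1 RPKM in each assay bounds how far RA or TA of a member can lie below its TR. Just inside it were SLC5A5 (mean RA 1.02 RPKM), SLC38A3 (mean RA 1.11) and SLC24A1 (mean TA 1.15), and just outside SLC2A4, SLC43A2 and SLC37A2 with a mean TA of 0.967, 0.904 and 0.904 RPKM. Of the 145 symbols that were not members, 84 were under 1 RPKM in all assays, 49 reached it in TR alone and 12 in TR and RA. SLC10A1, the bile acid importer of the liver, had a mean TR of 39.3 RPKM and a mean RA of 0.0492, and SLC7A7 24.3 and 0.121. No symbol outside the members reached 1 RPKM in RA or TA without reaching it in TR.

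In other transporter groups under the same threshold the counts differed in places. Of 34 mitochondrial SLC25A carriers, RA was called higher than TR for 8 (23.5%) and lower for 9 (26.5%), beside 24.7% and 34.2% of the 10825 genes. TA was called higher than RA for 1 (2.94%, beside 8.67%) and lower for 16 (47.1%, beside 24.1% of the members and 28.3% of the 10825 genes). The medians of these carriers were 0.04 and -0.59 in the 2 indices. Of 24 ABC transporters, TA was called higher for 2 (8.33%) and lower for 7 (29.2%), with a median translation index of -0.17. Of 15 SLC35B to SLC35F genes, RA was lower for 9 (60%, beside 34.2% of the 10825 genes) and TA for 5 (33.3%, beside 28.3%). Only 2 of 12 SLCO organic anion carriers met the threshold. These are counts side by side, and no difference between groups was tested.

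Known partners of the carriers were read as a list. RA was called higher than TR for 7 of 13, beside 24.7% of the 10825 genes, among them BSG, EMB, CHP1, ATP1B3, STK39 and LAPTM4B, and lower for PDZK1. LAPTM4B, which brings the SLC3A2 and SLC7A5 pair to lysosomes, had 60.5 and 35.6 RPKM in TR and 224, 166 and 223 in RA (2.12 ± 0.29, adjusted p = 0.000333). WNK1, the kinase that regulates SLC12 carriers, was lower in TA than RA (23.1, 21.9 and 26.9 RPKM in RA, 14.5 and 12.5 in TA, -0.82 ± 0.17, adjusted p = 0.00907), as was EMB, a relative of BSG (-0.89 ± 0.28, adjusted p = 0.0387). SLC9A3R1 and SLC9A3R2, scaffolds of the sodium and proton exchangers, were not called.

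The translation index was lower for members with more upstream ATG triplets in the annotated leader, as it was over all genes. Upstream ATG triplets, which can catch ribosomes before the coding sequence, were counted in the leader of the canonical transcript of 139 members. The median translation index was -0.03 for the 67 members with none, -0.04 for the 33 with 1, -0.41 for the 15 with 2 and -0.62 for the 24 with 3 or more. All 9 members with a TA called higher had none. Over all genes of at least 1 RPKM in each assay, 13.2% of those with none and 0.261% of those with 3 or more were called higher. TA was called lower for 19.4%, 21.2%, 26.7% and 37.5% of the members with none, 1, 2 and 3 or more, beside 16.8%, 37.3%, 51.0% and 56.9% of all genes of at least 1 RPKM in each assay. Across genes Spearman's rho was -0.30 over 139 members and -0.41 over 10609 genes. For leader length itself rho was only -0.12 over 140 members, beside -0.37 over 10637 genes. Members share families, and leader annotation need not match the transcripts of these cells. Exceptions stood on both sides: SLC2A13 and SLC31A1 had none and a low TA, and SLC3A2 had 1.

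**Figure D5:**
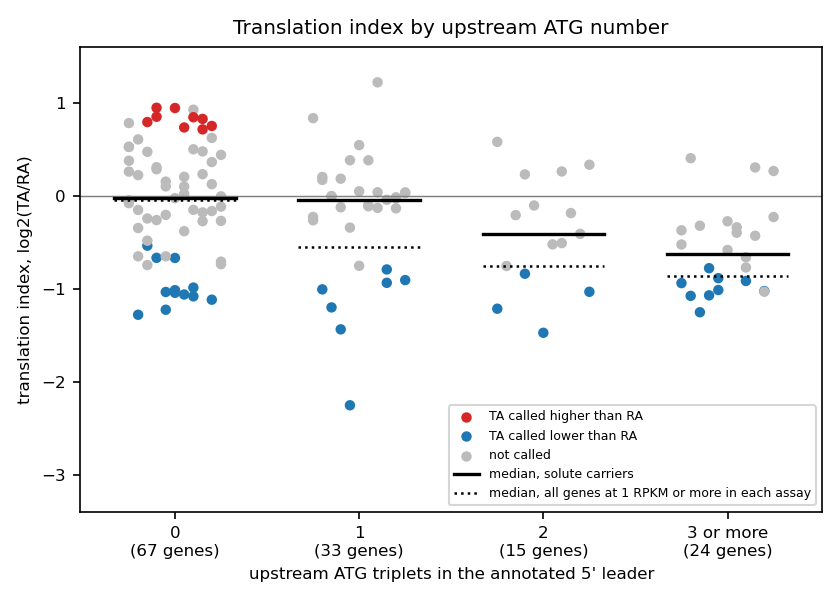
Translation index (y axis, log2 TA/RA) of 139 genes by the number of upstream ATG triplets in the annotated 5′ leader (x axis), 1 point per gene, red for TA called higher than RA, blue for lower, grey for not called. Solid bars are medians of the solute carriers, which go from -0.03 with none to -0.62 with 3 or more, and dotted bars are medians of all genes of at least 1 RPKM in each assay.

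Transcript length moved with the same index. Spearman's rho between exon length and translation index was -0.31 over 141 members, beside -0.27 over 10825 genes, and between the share of untranslated bases and the index -0.28 over 140 members and -0.24 over 10637 genes. With the stability index, rho over members was 0.13 for exon length, 0.14 for the untranslated share and 0.07 for upstream ATG number. These features are linked to each other and are given as a description.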

How the data were processed

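HCT116 libraries of TR, RA and TA were analysed. The authors mapped reads to hg19 with TopHat, counted reads over exons with HTSeq and deposited RPKM values per gene and library. Strand setting and annotation are not given in the sources used here. Reads behind a value were worked out from RPKM steps: 100% of values above 0 came out whole within 0.02 reads, so depth is known and limits low values by counting error. limma 3.58.1 in R 4.3.3 (eBayes with a trend) was run on log2(RPKM + 0.1) for all 7 libraries, after testing on simulated data, and adjusted by Benjamini-Hochberg over 14305 genes. Fold changes on this scale understate those of low genes. Python 3.11.15, pandas 2.3.3 and matplotlib 3.10.9 served for the rest.

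Members, classes and lists were chosen with earlier results of these data known. Named genes were well known carriers from a list of 47, the 5 highest and 5 lowest in each index with the same sign in every library pair, the extremes of each family with at least 3 members, and the genes next to the threshold. SLC39A11, SLC10A1 and SLC7A7, outside that rule, were named after their values were seen. Genes were matched to GENCODE 44 lifted to GRCh37, 140 members by symbol and 1 through an older one. Alternatives covered centring, pseudocounts, filters, thresholds, a replicate block and each library left out. Leaving out members overlapped by coding genes was added after seeing the data. Values of a few genes are not reported here.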

Additional observations from a re-analysis of the deposited data

How the results depend on the processing

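With each library centred on its median, calls for RA against TR went to 30 higher, for TA against RA to 19 higher and 10 lower, and for TA against TR to 39 higher and 41 lower. The median stability index became -0.035 and the median translation index reversed to 0.20, because centring removes the offset between assays. The replicate block gave 8 higher for RA against TR, beside 18.7% of the 10825 genes. For TA against RA it gave 1 higher and 4 lower, beside 1.01% and 8.73%. No filter on low values gave 5 higher for TA against RA, beside 7.18% of the 10825 genes. The median stability index was -0.38 with geometric means, -0.37 with the replicate block, -0.43 and -0.25 at thresholds of 0.5 and 2 RPKM, and -0.22 without the 21 members overlapped by coding genes. With 1 library left out in turn, calls ranged from 10 to 25 higher for RA against TR, from 3 to 10 higher and 11 to 32 lower for TA against RA, and from 10 to 27 higher for TA against TR. The median stability index ranged from -0.38 to -0.29 and the median translation index from -0.22 to -0.13. With an RA library left out, 20.6% to 25.1% of the 10825 genes were called higher for RA against TR. For TA against RA, 3.82% to 9.36% were called higher and 18.1% to 28.8% lower. For TA against TR, shares of the 10825 genes under the alternatives are not given here. Those counts therefore describe the members alone. Where a group was left with 1 library, it was assumed to vary like the others. Of 75 calls of named members, 30 kept their call under all alternatives and none reversed; 18 were lost with centring. The replicate numbers come from labels that name no shared culture. Differences between libraries 1 and 2 correlated at 0.15 (TR and RA), 0.02 (TR and TA) and -0.56 (RA and TA) over 10825 genes. These values cannot settle whether libraries of different assays share a culture, under these numbers or in another order. The main fit treated all libraries as unpaired. Depth limits calls most in TR, with 3391897 and 5629982 reads.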

Other observations

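Some genes of the amino acid response that are not solute carriers had their lowest RA in RNA-seq library 1 and their highest in library 2, as had SLC43A1, SLC7A11, SLC6A9, SLC3A2, SLC1A3, SLC1A4 and SLC7A5, carriers picked for their wide spread. Of all 27 amino acid carriers, 15 were lowest in library 1. They were picked after the carriers' values were seen, and nothing beyond their values was tested. ASNS, asparagine synthetase, had 33.1, 209 and 127 RPKM in RA libraries 1, 2 and 3, and 381 and 196 in TA. TRIB3, a pseudokinase induced with it, had 20.5, 181 and 95.0 RPKM in RA, and the transcription factor DDIT3 30.4, 358 and 306. PSAT1, of serine synthesis, had 45.2, 97.6 and 82.9 RPKM in RA, and CHAC1, a glutathione-degrading enzyme, 4.71, 32.3 and 21.3. In TA, ASNS, TRIB3, PSAT1 and CHAC1 were higher in library 1 than in library 2. So were SLC3A2, SLC7A11, SLC43A1, SLC1A4, SLC6A9 and SLC7A5, whereas DDIT3 was lower (127 and 190 RPKM). Over the 10825 genes, differences between libraries 1 and 2 in RA and in TA correlated at -0.56. Genes lower in RA library 1 than in 2 thus tended to be higher in TA library 1 than in 2, and this order is not particular to the genes named. In TR, ASNS had 15.9 and 25.9 RPKM and DDIT3 59.1 and 111.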
